A study of Mus musculus with 6 samples.

Results

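The collagen chain genes were compared between 3 mouse ureter samples labelled Col17a1-KO and 3 labelled Col17a1-WT, all from C57BL/6N animals of 2 months and taken 4 days after unilateral ureteral obstruction (UUO), a model in which urine flow on 1 side is blocked. KO replicate 3 is labelled female and the other 5 samples male. RNA of each sample was hybridised to a 1-colour Agilent array. The members were found by their names on the array, Col followed by a number, the letter a and a number, leaving out Col17a1, the targeted gene, and Col7a1. This gave 42 of the 36610 gene names and identifiers on the array, read by 89 probes. The sources used here do not say which part of Col17a1 was altered, or in which cells.

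Collagens are built from alpha chains that wind around each other into a triple helix, in which glycine recurs at short, regular intervals. Fibrillar collagens such as types I, III and V form the tensile fibres of the ureter's connective tissue, and type IV chains form the sheet-like network of basement membranes beneath the urothelium and around muscle cells and vessels. FACIT collagens sit on the surface of fibrils, transmembrane collagens are anchored in the cell membrane like collagen XVII itself, and type VI chains form beaded microfibrils between fibres and cells. In the kidney, ureteral obstruction is known to be followed by deposition of collagen.

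The glycine repeat of the triple helix could be read directly in a few of the probes, which are shown for that reason. Of the 89 probes 4 (4.49%) held at least 6 codons of the form GGN, which encode glycine, spaced 9 bases apart, against 7 of 56513 probes (0.0124%) of other genes. Capitals mark these codons, and each probe has 60 bases:
Col5a3, chr9:20590066-20590795, minus strand: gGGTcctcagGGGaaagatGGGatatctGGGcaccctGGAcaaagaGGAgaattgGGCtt
Col6a3, chr1:92689602-92690594, minus strand: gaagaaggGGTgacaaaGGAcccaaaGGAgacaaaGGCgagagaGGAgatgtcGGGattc
Col11a2, chr17:34189287-34189453, plus strand: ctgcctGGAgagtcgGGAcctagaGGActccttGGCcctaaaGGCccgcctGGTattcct
Col15a1, chr4:47283786-47283845, plus strand: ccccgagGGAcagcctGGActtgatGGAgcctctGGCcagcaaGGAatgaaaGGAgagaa
The coordinates are those of the file (mouse build mm9). Except for Col15a1 they span more than the probe's length, so their 60 bases are spread over a longer stretch of the genome.

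The label was first set against Col17a1 itself, and no loss of its signal was seen. The brighter of its probes had log2 values of 0.50, 0.53 and 0.40 in KO-labelled ureters, against -2.33, -0.80 and -0.39 in WT ureters. All KO-labelled values lay above all WT values, with a difference of 1.65 ± 0.48 (limma, adjusted p = 0.457). The other probe, with -1.76, -1.80 and -1.94 in KO-labelled ureters, against -3.34, -2.76 and -2.70 in WT ureters, had the same direction. These probes may lie outside the altered part and then check nothing, so the group is called KO-labelled and every direction rests on the labels. Values throughout are log2 signals relative to the array's 75th percentile, differences are KO-labelled minus WT with their standard error, and n is 3 arrays a group. The 8 urothelium and 8 smooth muscle markers were well above background on all 6 arrays, as were Col1a1, Col3a1 and Col4a1. Correlations between arrays, across genes, lay between 0.977 and 0.993, and WT replicate 2 carried kidney transcripts: the 4 kidney markers measured, of 8 listed, averaged 1.89 above their mean over the 6 arrays, while the other arrays lay between -0.44 and -0.30. These are bulk samples, so fewer cells of a type and less RNA per cell cannot be told apart.

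Of the 42 collagen genes 34 were measured, meaning that all 3 arrays of 1 group or the other had a signal well above background, and 32 had it on all 6. No collagen gene passed the threshold of 0.05 after adjustment over the 22260 genes tested (limma, 0 genes or 0% of all genes), with adjusted p-values from 0.454 to 0.999. At an unadjusted p under 0.05 there were 2 collagen genes, Col13a1 and Col6a4, both higher, or 5.88%, against 9.06% of all genes (4.35% higher and 4.71% lower). The groups did not overlap for 3 collagen genes, 1 with higher and 2 with lower KO-labelled values, or 8.82%, against 15.4% of all genes (7.28% higher and 8.13% lower). Both shares lay below the background. A difference of at least 2-fold was seen for Col6a4 and Col8a2, or 5.88%, against 1.66% of all genes. The median difference over the 34 genes was 0.01, against 0.00 over all genes, and 18 of them were above 0, against 49.8% of all genes. For 24 of the 34 (70.6%) the 95% interval of the difference stayed within 2-fold in either direction, as it did for 82.7% of all genes. Col6a4, counted both at an unadjusted p under 0.05 and at 2-fold, entered the test through its KO-labelled arrays alone, and 1 collagen gene, Col13a1, remained at an unadjusted p under 0.05 among those above background on all 6 arrays. With single arrays left out, the count of 2 became 1 (2.94%, against 4.92% of all genes) without KO replicate 1. It was 5 without KO replicate 3 (14.7%, against 13.7%) and without WT replicate 1 (14.7%, against 12%). Without WT replicate 2 it was 3 (8.82%, against 6.13%). It stayed at 2 without KO replicate 2 (5.88%, against 5.01%) and without WT replicate 3 (5.88%, against 7.56%). Groups without overlap numbered 7 (20.6%, against 21.3% of all genes) without KO replicate 1, 9 (26.5%, against 33.6%) without KO replicate 3 and 8 (23.5%, against 32.4%) without WT replicate 1. They numbered 6 (17.6%, against 22.2%) without WT replicate 2 and 9 (26.5%, against 25%) without WT replicate 3.

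**Figure D1:**
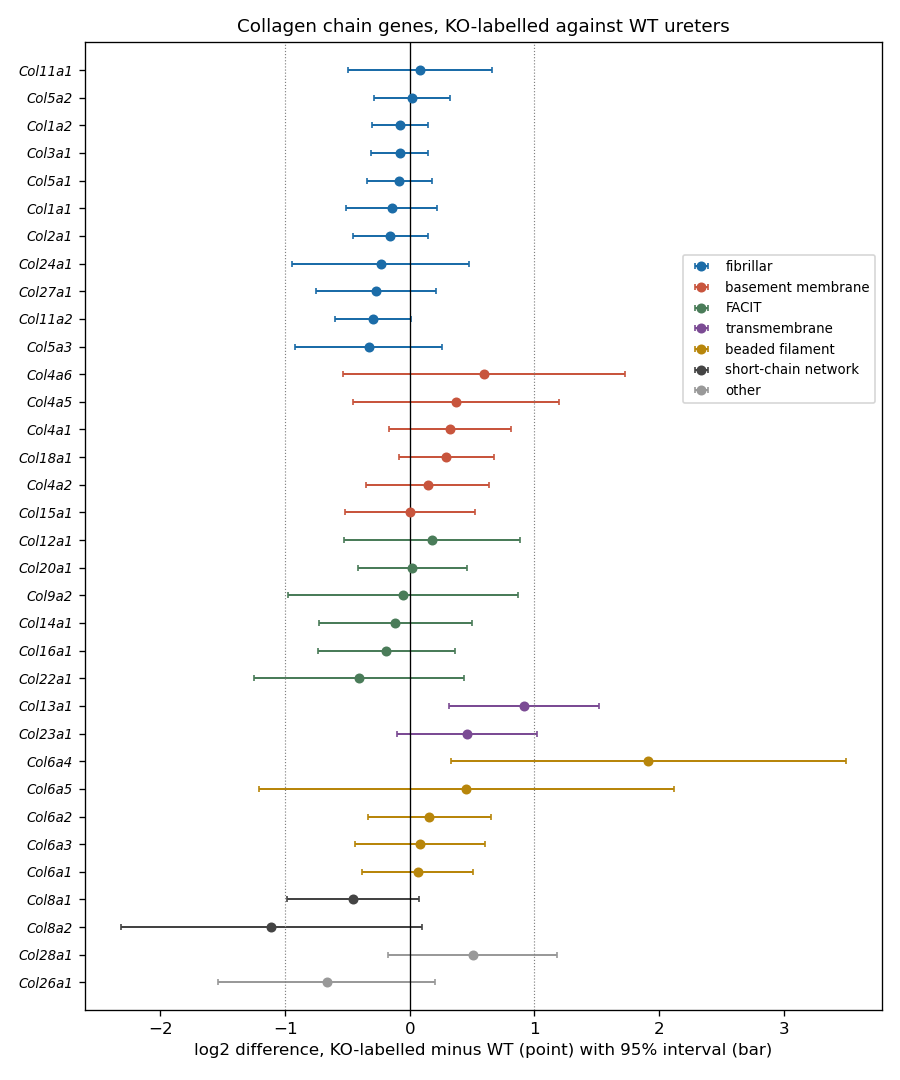
Log2 difference (KO-labelled minus WT, point) with its 95% interval (bar) for the 34 measured collagen genes, coloured by class; dotted lines mark 2-fold. The 11 fibrillar chains lie between -0.33 and 0.08 with intervals inside 2-fold, and only the intervals of Col13a1 and Col6a4 leave out 0.

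The fibrillar chains were nearly level between the groups. All 11 were well above background on all 6 arrays, 9 had a lower and 2 a higher KO-labelled mean, and the median difference was -0.15, with a range from -0.33 to 0.08. The 95% interval of each of the 11 stayed within 2-fold. Col3a1, the chain of type III collagen, had values of 7.61, 7.52 and 7.61 in KO-labelled ureters, against 7.67, 7.70 and 7.62 in WT ureters. The KO-labelled values lay just below the WT values without overlap, and the difference of -0.08 ± 0.09 had a 95% interval from -0.31 to 0.15. Col1a1, the alpha 1 chain of type I collagen, had values of 8.14, 7.67 and 8.04 in KO-labelled ureters, against 8.20, 8.07 and 8.03 in WT ureters (-0.15 ± 0.15). KO replicate 2 lay apart from the other 5 arrays, and leaving it out gave -0.01. Its partner chain Col1a2 had values of 8.64, 8.53 and 8.58 in KO-labelled ureters, against 8.71, 8.66 and 8.62 in WT ureters (-0.08 ± 0.09). For both chains of type I collagen the groups overlapped.

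Among the fibrillar chains with lower unadjusted p, Col11a2, a chain of the cartilage collagen XI, had values of -4.06, -4.10 and -4.41 in KO-labelled ureters, against -3.92, -3.85 and -3.91 in WT ureters. The groups did not overlap, the difference was -0.30 ± 0.13 (-0.19 without KO replicate 3), and its second probe, the one shown above, gave -0.05. With a normexp background correction the Col11a2 difference was -0.06. Col5a3, a type V chain, had values of 4.97, 4.63 and 5.54 in KO-labelled ureters, against 5.45, 5.50 and 5.17 in WT ureters (-0.33 ± 0.24). Its second probe, also shown above, gave -0.37, so both probes had the same direction. Without KO replicate 3 the Col5a3 difference was -0.58, and without KO replicate 2 it was -0.12. Col27a1, a developmental fibrillar chain, had values of -0.90, -0.90 and -0.28 in KO-labelled ureters, against -0.30, -0.56 and -0.41 in WT ureters (-0.27 ± 0.20). KO replicate 3 had the highest value of all 6 arrays; the difference was -0.48 without it and -0.17 without KO replicate 1 or 2. Col2a1, the main collagen of cartilage, had values of 0.59, 0.25 and 0.54 in KO-labelled ureters, against 0.57, 0.67 and 0.61 in WT ureters (-0.16 ± 0.12), and -0.05 was left without KO replicate 2. Of 4 cartilage markers only Acan was measured, while Matn1, Matn3 and Hapln1 were not. Col5a2 had values of 0.90, 0.84 and 0.91 in KO-labelled ureters, against 1.004, 0.95 and 0.65 in WT ureters (0.02 ± 0.13). Col5a1, Col11a1 and Col24a1 differed by -0.09, 0.08 and -0.23. KO replicate 2 was the lowest array for 7 of the 11 fibrillar chains, and the class median was -0.05 without it.

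**Figure D2:**
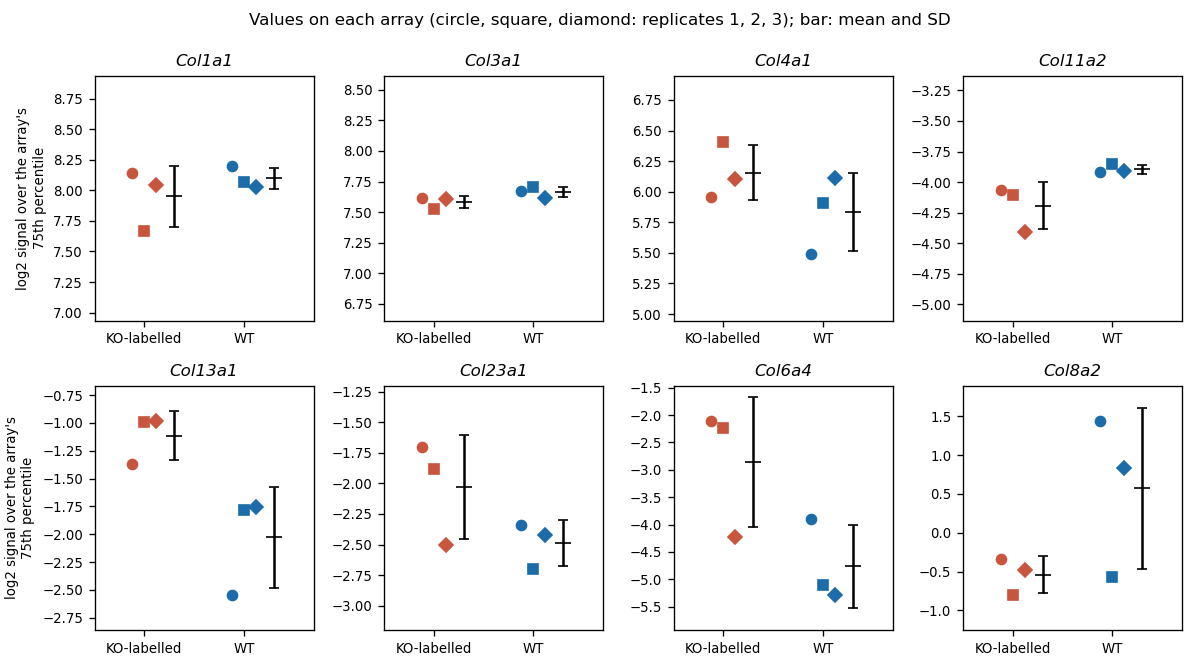
Log2 signal over the array's 75th percentile on each array for 8 collagen genes (circle, square and diamond are replicates 1, 2 and 3), with the mean and SD of each group (bar). Each gene is shown by its brightest measured probe. Col13a1 and Col11a2 separate the groups, as does Col3a1 by a very small margin. Col1a1 does not, and WT replicate 2 of Col8a2 lies within the KO-labelled range.

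All 6 measured basement membrane chains had a KO-labelled mean above the WT mean, with differences from 0.00 to 0.59 and a median of 0.31, or 0.20 without KO replicate 2. The groups overlapped for every one of them and none had an unadjusted p under 0.05. Col4a1, which with Col4a2 makes the common type IV network, had values of 5.96, 6.40 and 6.11 in KO-labelled ureters, against 5.49, 5.91 and 6.11 in WT ureters (0.32 ± 0.20). WT replicate 1 was the lowest array and KO replicate 2 the highest, and the difference was 0.15 without the first and 0.20 without the second. Col4a2 differed by 0.14 ± 0.20 and was likewise lowest in WT replicate 1. Col18a1, which carries endostatin at its end, had values of 4.36, 4.75 and 4.49 in KO-labelled ureters, against 4.28, 4.03 and 4.42 in WT ureters (0.29 ± 0.16), with 0.18 without KO replicate 2 and 0.19 without WT replicate 2. Col15a1, its relative, differed by 0.00 ± 0.22.

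Col4a5 and Col4a6, neighbouring genes on the X chromosome, followed another array order than Col4a1 and Col4a2. Col4a6, a chain of smooth muscle and epithelial basement membranes, had values of 0.32, -0.14 and -0.61 in KO-labelled ureters, against 0.26, -1.40 and -1.06 in WT ureters (0.59 ± 0.47). Col4a5 had values of 0.00, -0.23 and -0.46 in KO-labelled ureters, against 0.15, -1.17 and -0.79 in WT ureters (0.37 ± 0.34). WT replicate 1 stood with KO replicates 1 and 2, and without that array the differences were 1.09 for Col4a6 and 0.75 for Col4a5. Without WT replicate 2, the array with kidney transcripts, they were 0.26 for Col4a6 and 0.09 for Col4a5. WT replicate 2 was also lowest for all 8 smooth muscle markers and for 6 of 8 urothelium markers, while Krt5 and Krt19 were lowest in WT replicate 1. The 8 smooth muscle genes, all measured, averaged -0.22 to 0.64 around their own mean in KO-labelled ureters, against -0.81 to 0.09 in WT ureters, and the 8 urothelium genes 0.02 to 0.86 in KO-labelled ureters, against -0.89 to 0.01 in WT ureters. Their part in the values of Col4a5 and Col4a6 was not tested. Col4a3 and Col4a4, chains of the kidney's glomerular basement membrane, were not measured. The signal of Col4a3 exceeded background on none of the arrays, and the 2 probes of Col4a4 were above it on no KO-labelled array and on WT replicates 1 and 2, or on WT replicate 2 alone.

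The Col4a1 and Col4a2 genes lie head to head, which is why their start regions are shown. RefSeq (build GRCm38.p6) places their start sites 21 bases apart on opposite strands of chromosome 8, and the windows from 250 bases before to 50 after the start share 78 bases. Capitals mark the CCAAT box (CCAAT), the GC box (GGGCGG) and the TATA box (TATAAA), read on either strand, and the motifs do not overlap in these windows:
Col4a1, chr8:11312777-11313076, minus strand: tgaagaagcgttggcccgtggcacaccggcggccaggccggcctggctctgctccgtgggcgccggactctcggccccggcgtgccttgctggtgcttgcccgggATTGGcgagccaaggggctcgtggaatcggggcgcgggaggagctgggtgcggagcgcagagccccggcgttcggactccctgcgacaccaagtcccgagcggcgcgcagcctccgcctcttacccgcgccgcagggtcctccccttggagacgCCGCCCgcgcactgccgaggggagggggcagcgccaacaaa
Col4a2, chr8:11312555-11312854, plus strand: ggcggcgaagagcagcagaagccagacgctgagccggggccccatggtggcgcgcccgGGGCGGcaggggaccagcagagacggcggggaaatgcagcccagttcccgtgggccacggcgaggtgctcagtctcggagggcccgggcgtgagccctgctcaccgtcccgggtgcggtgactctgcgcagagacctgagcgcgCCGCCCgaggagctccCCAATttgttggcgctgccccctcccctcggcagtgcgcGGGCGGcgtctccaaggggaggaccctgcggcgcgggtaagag
The Col4a1 window held 1 CCAAT box and 1 GC box, the Col4a2 window 1 CCAAT box and 3 GC boxes, and neither held a TATA box. The GC box of Col4a1 and the last GC box of Col4a2 are the same site, in the shared bases, read from opposite strands. Of 32851 promoter windows of mouse genes 37.4% held a CCAAT box, 35.7% a GC box and 13.6% a TATA box. Windows were found for 33 of the 42 collagen genes, 36 windows in all, of which 30.6% held a CCAAT box, 61.1% a GC box and 11.1% a TATA box. A match is a description of the letters and not of a bound factor. Col4a5 and Col4a6 start 1343 bases apart.

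FACIT chains showed no common direction. Of the 6 measured genes 2 had a higher and 4 a lower KO-labelled mean, the groups overlapped for all 6, and none had an unadjusted p under 0.05. The median difference was -0.08, but 0.16 without WT replicate 1 and -0.36 without WT replicate 2. WT replicate 1 was the highest array for 5 of the 6 and WT replicate 2 the lowest for 4. Col16a1 had values of 4.68, 4.32 and 4.56 in KO-labelled ureters, against 5.14, 4.31 and 4.68 in WT ureters (-0.19 ± 0.23). Col12a1, found on fibrils of dense connective tissue, had values of 2.80, 2.74 and 2.05 in KO-labelled ureters, against 2.63, 1.85 and 2.58 in WT ureters (0.18 ± 0.29). Col14a1, its relative, had values of -0.29, -0.53 and -0.59 in KO-labelled ureters, against 0.17, -0.80 and -0.42 in WT ureters (-0.12 ± 0.25). Leaving out WT replicate 1 turned the sign of Col16a1 (0.03) and of Col14a1 (0.14), and leaving out WT replicate 2 turned that of Col12a1 (-0.07). Col22a1, a chain of tissue junctions such as that of muscle and tendon, had values of -3.89, -4.06 and -5.08 in KO-labelled ureters, against -3.53, -4.12 and -4.15 in WT ureters (-0.41 ± 0.35). Its KO-labelled signal was well above background on 2 of 3 arrays, so Col22a1 entered the test through its WT arrays alone, the group where it was high. The difference was -0.04 without KO replicate 3, -0.635 without KO replicate 1 and -0.07 with a normexp background correction. A second probe, above background on the same arrays and so measured in the same way, gave -0.68 ± 0.29. The remaining Col22a1 probe was above background on KO replicates 1 and 3 and WT replicate 1 only and was not measured. Its means were -4.70 in KO-labelled and -4.74 in WT ureters. Col9a2 and Col20a1 differed by -0.05 and 0.02, and Col9a1, Col9a3 and Col19a1 were not measured.

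Among the transmembrane collagens, the relatives of collagen XVII by their place in the cell membrane, Col13a1 had the lowest unadjusted p of all 34 genes. Col13a1 encodes collagen XIII, found at cell adhesions and at the neuromuscular junction. Its brightest probe (chr10:61301277-61301336, minus strand, mm9) had values of -1.37, -0.99 and -0.98 in KO-labelled ureters, against -2.55, -1.78 and -1.76 in WT ureters. All 3 KO-labelled values lay above all WT values. The difference was 0.91 ± 0.25, with a 95% interval from 0.31 to 1.52 (limma, unadjusted p = 0.00955, adjusted p = 0.454) and missed the threshold. Without WT replicate 1, the lowest array, it was 0.65, over the arrays left out in turn it lay between 0.65 and 1.05, and with a normexp background correction it was 0.41. A second measured probe (chr10:61313890-61313949), taken from an Ensembl transcript, did not share the direction: its values were -3.10, -3.39 and -3.23 in KO-labelled ureters, against -2.88, -3.34 and -3.19 in WT ureters (-0.10 ± 0.16). The mean of both probes gave 0.41, and its remaining probe was well above background on WT replicate 2 alone. The start region of Col13a1 is shown because this gene had the lowest unadjusted p of the 34. Its 1 match to the TATA box letters, in capitals, lies at the upstream end of the window, far from the start site. The window held no CCAAT or GC box:
Col13a1, chr10:61979059-61979358, minus strand, GRCm38.p6: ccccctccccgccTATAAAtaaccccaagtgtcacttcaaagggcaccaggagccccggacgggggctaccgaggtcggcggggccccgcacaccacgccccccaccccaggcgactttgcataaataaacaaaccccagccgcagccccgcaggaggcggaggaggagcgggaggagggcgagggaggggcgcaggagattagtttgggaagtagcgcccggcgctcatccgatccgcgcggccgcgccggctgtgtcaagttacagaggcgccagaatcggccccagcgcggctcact

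Col23a1, another transmembrane chain, had values of -1.70, -1.88 and -2.51 in KO-labelled ureters, against -2.34, -2.70 and -2.42 in WT ureters. KO replicate 3 fell within the WT range, the difference was 0.46 ± 0.23, and it was 0.70 without KO replicate 3 and 0.295 without KO replicate 1. With a normexp background correction it was 0.15. A second probe gave 0.83 ± 0.37. Col25a1, a collagen of neurons, had no probe above background. The class median over Col13a1 and Col23a1 was 0.69.

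The beaded filament chains of type VI divided into a level trio and a variable pair. Col6a1, Col6a2 and Col6a3, which assemble together into microfibrils, differed by 0.06 ± 0.18, 0.16 ± 0.20 and 0.08 ± 0.21. Col6a2 had values of 3.21, 3.03 and 3.24 in KO-labelled ureters, against 3.41, 2.66 and 2.93 in WT ureters. Col6a3 had values of 5.06, 5.40 and 5.04 in KO-labelled ureters, against 5.48, 4.74 and 5.04 in WT ureters. For all 3 genes of the trio WT replicate 1 was the highest and WT replicate 2 the lowest array, so the KO-labelled values lay inside the WT range. Of the 8 fibroblast markers 5 had the same highest and lowest array, and Thy1, Pdgfrb and Pdgfra did not. The 8 genes averaged -0.07 to 0.11 around their own mean in KO-labelled ureters, against -0.31 to 0.29 in WT ureters, and 5 of the 8 had a KO-labelled mean above the WT mean. Their part in the values of the trio was not tested.

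Col6a4 had the largest difference of the 34 genes on a dim signal. Its values were -2.10, -2.24 and -4.22 in KO-labelled ureters, against -3.90, -5.10 and -5.29 in WT ureters. It was well above background on all KO-labelled arrays and on 1 of 3 WT arrays, so it entered the test through the group where it was high. KO replicate 3 lay below WT replicate 1, and the difference was 1.91 ± 0.65 (limma, adjusted p = 0.490). Without KO replicate 3 it was 2.60 and with a normexp background correction 0.36, and its other probe stayed at background on all 6 arrays. Col6a5 had values of 0.66, -0.66 and 0.58 in KO-labelled ureters, against 1.16, -1.32 and -0.62 in WT ureters. Its groups overlapped widely (0.45 ± 0.69), and the difference was -0.08 without WT replicate 2 and 1.17 without WT replicate 1. Col6a6 was well above background on WT replicate 1 alone and was not measured.

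**Figure D3:**
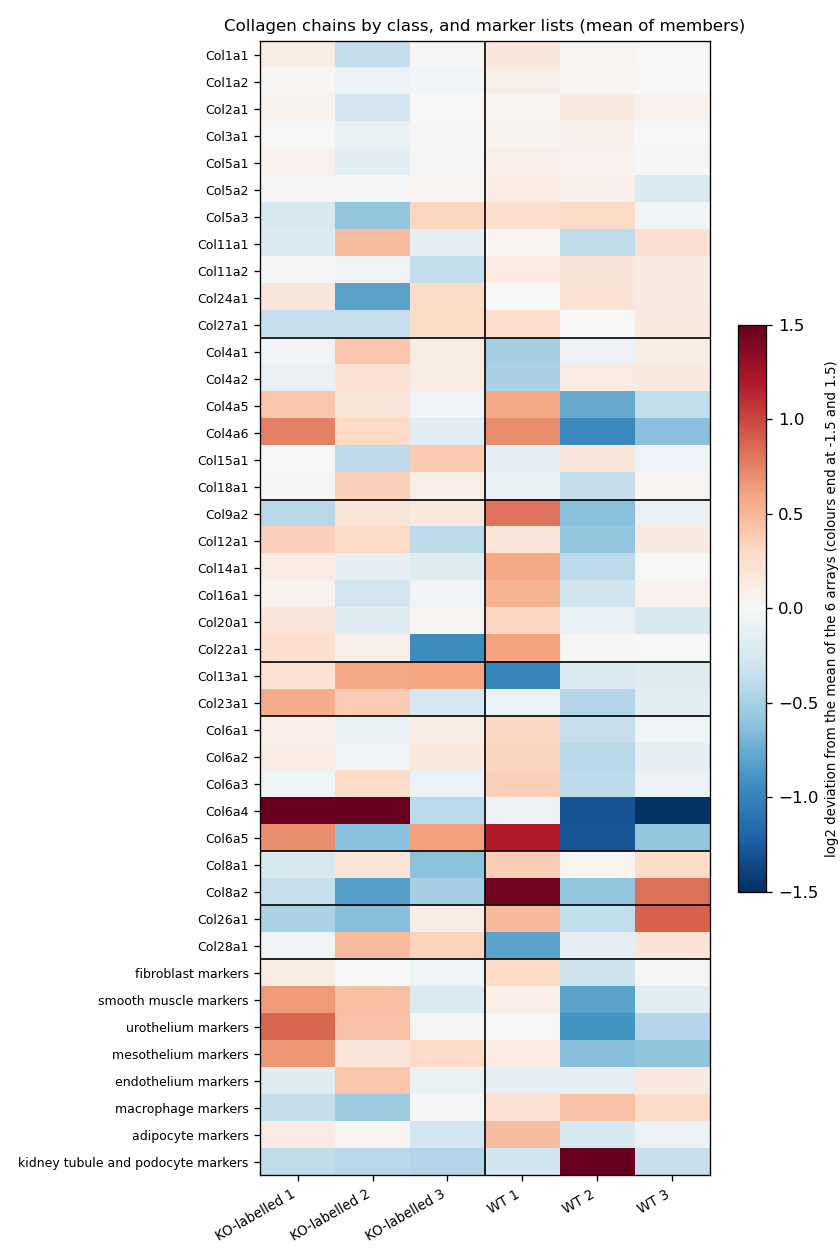
Log2 deviation of each of the 34 collagen genes from its own mean over the 6 arrays, by class, with KO-labelled arrays left of WT arrays; the lowest rows give the mean deviation of 8 marker lists. WT replicate 1 is red and WT replicate 2 blue for most FACIT and type VI chains, and most fibrillar rows are pale.

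Both measured short-chain network collagens, found in vessel walls and sheet-like matrices, had a lower KO-labelled mean. Col8a1 had values of 4.42, 4.84 and 4.04 in KO-labelled ureters, against 5.03, 4.70 and 4.94 in WT ureters (-0.45 ± 0.22). KO replicate 2 lay above WT replicate 2, and the difference was -0.66 without KO replicate 2 and -0.26 without KO replicate 3. Col8a2 had values of -0.33, -0.81 and -0.48 in KO-labelled ureters, against 1.45, -0.57 and 0.84 in WT ureters (-1.11 ± 0.50). WT replicate 2 lay within the KO-labelled range, and the difference was -1.68 without it and -0.67 without WT replicate 1. Col10a1, the collagen of growth plate cartilage, was well above background on 4 arrays, KO replicates 2 and 3 and WT replicates 1 and 3, and was not tested.

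Of the remaining chains, Col26a1 had values of -2.44, -2.61 and -1.86 in KO-labelled ureters, against -1.49, -2.34 and -1.08 in WT ureters (-0.67 ± 0.36). Leaving out WT replicate 2 gave -1.02, leaving out WT replicate 3 gave -0.39, and a normexp background correction gave -0.32. All 3 of its probes were lower in KO-labelled ureters, though the dimmest was not well above background on KO replicate 2. Col28a1, known from peripheral nerve, had values of -4.28, -3.77 and -3.91 in KO-labelled ureters, against -5.05, -4.38 and -4.04 in WT ureters. KO replicate 1 lay within the WT range, and the difference was 0.50 ± 0.28, but 0.225 without WT replicate 1 and 0.03 with a normexp background correction. Its second probe, without overlap, gave 0.43 ± 0.18. That probe was not well above background on WT replicate 1, its lowest array, so it was measured through the KO-labelled arrays alone. Schwann cell markers beside it differed by 0.09 to 0.71, with all 4 higher. Their part in the value of Col28a1 was not tested.

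Probes of 1 gene did not always point the same way. Of the 20 collagen genes with at least 2 measured probes, 6 (30%) had probes of both signs, against 39.6% of all such genes. These were Col1a1, Col1a2, Col5a2, Col13a1, Col6a2 and Col6a3. For Col1a1 the 3 probes from the RefSeq transcript gave -0.15, -0.12 and -0.10, and the probe at chr11:94800628-94800687, from an Ensembl transcript and with a signal between -4.60 and -4.00, gave 0.22 ± 0.16. Col1a2 gave -0.08 at its brightest probe and -0.13, 0.07 and 0.10 at 3 probes from Ensembl transcripts (chr6:4484938-4484997, chr6:4464456-4464515 and chr6:4479333-4479392). Col5a2 gave 0.02 at its brightest probe (chr1:45431204-45431263) and -0.12 ± 0.32 at chr1:45445876-45445935. Except for Col13a1, the differences of the disagreeing probes lay between -0.15 and 0.22. Col6a2 gave 0.16 at its brightest probe (chr10:76058931-76058990), -0.09 at chr10:76061089-76061148 and -0.13 at chr10:76064567-76064626. Col6a3 gave 0.08 at its brightest probe (chr1:92663663-92663722), -0.08 at the helix-coding probe shown above and -0.15 at chr1:92690484-92690543. The mean of the probes turned the sign of Col5a2 (-0.05), Col6a2 (-0.02) and Col6a3 (-0.05).

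**Figure D4:**
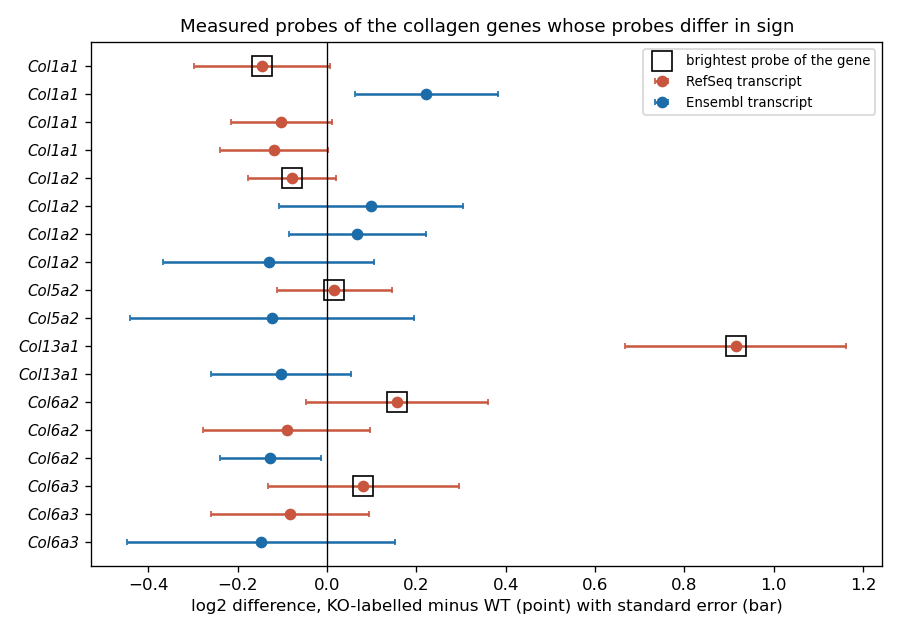
Log2 difference (KO-labelled minus WT, point) with its standard error (bar) of each measured probe of the 6 collagen genes whose probes differ in sign; squares mark the brightest probe of each gene, and colour the kind of transcript a probe was taken from. Col13a1 holds the widest gap, 0.91 against -0.10, and the other genes lie close to 0.

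Genes that modify, fold, cleave and cross-link collagen were close to level as well. Of 32 genes fixed for synthesis and processing 31 were measured, 11 with a higher and 20 with a lower KO-labelled mean, and the median difference was -0.07. None passed the adjusted threshold (limma), and 3 of the 31 had an unadjusted p under 0.05, all lower. Of all genes 9.06% were at that level, 4.35% higher and 4.71% lower. Serpinh1, the collagen chaperone HSP47, had values of 5.85, 5.80 and 5.93 in KO-labelled ureters, against 6.10, 6.30 and 6.10 in WT ureters (-0.31 ± 0.11). The Serpinh1 values did not overlap between the groups. Pcolce2, an enhancer of procollagen cleavage, did not overlap either, with 0.94, 0.71 and 1.02 in KO-labelled ureters, against 1.15, 1.60 and 1.28 in WT ureters (-0.45 ± 0.16). Mia2 (0.13 ± 0.10) and Crtap (0.10 ± 0.10) of the same list also did not overlap, with higher KO-labelled values. The groups did not overlap for 15.4% of all genes. Adamts14, a procollagen protease, overlapped between groups (-0.59 ± 0.23), as did Plod1, a lysyl hydroxylase (-0.30 ± 0.14), and Loxl3, a lysyl oxidase (-0.33 ± 0.17). The count of 3 was 0 without KO replicate 1, KO replicate 2 or WT replicate 2. The cross-linking enzyme Lox differed by -0.02 and the prolyl hydroxylase subunit P4hb by 0.04.

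Of 10 receptor genes 9 were measured, 6 with a higher and 3 with a lower KO-labelled mean, and the median difference was 0.02. No receptor passed the adjusted threshold (limma), and 2 of the 9 had an unadjusted p under 0.05, both lower. Of all genes 9.06% were at that level, 4.35% higher and 4.71% lower. Lair1, an inhibitory collagen receptor of immune cells, had values of -0.33, -0.38 and 0.14 in KO-labelled ureters, against 0.42, 0.97 and 0.41 in WT ureters (-0.79 ± 0.22, adjusted p = 0.454). Mrc2, which takes up collagen into cells, had values of -0.02, -0.17 and -0.04 in KO-labelled ureters, against 0.35, 0.28 and 0.16 in WT ureters (-0.34 ± 0.11, adjusted p = 0.470). For both the groups did not overlap. Of all genes tested 15.4% had groups without overlap, 7.28% with higher and 8.13% with lower KO-labelled values. All 7 macrophage markers had a lower KO-labelled mean too, with averages of -0.55 to -0.03 around their own mean in KO-labelled ureters, against 0.22 to 0.44 in WT ureters. Their part in the values of Lair1 and Mrc2 was not tested. Itga11, the integrin chain that binds fibrillar collagen on fibroblasts, differed by -0.65 ± 0.33, and the discoidin receptors Ddr1 and Ddr2 by 0.01 and 0.02.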

How the data were processed

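Intensity values were deposited by the authors as Agilent Feature Extraction 12.0.3.1 output, with spatial and multiplicative detrending within each array, per the file headers; no scaling between arrays is recorded there. Flagged spots were set to missing, spots of a probe averaged on the log2 scale, and each array centred on its 75th percentile over 56605 non-control probes, whose signal lay between 143.7 and 164.9. A probe was measured if well above background (at least 50% of its spots) on every array of a group, and the brightest measured probe represented a gene. The comparison of the groups used limma 3.58.1 (lmFit, then eBayes; R 4.3.3), with Benjamini-Hochberg adjustment over all 22260 genes. The fit was tested on simulated data. The labels do not say that arrays came from separate mice, so p-values measure only the spread between these samples. The number of arrays limits the precision. The members, classes and lists were chosen with earlier results of these data known. The rule named 26 collagen genes: Col1a1, Col3a1 and Col4a1, those with the smallest unadjusted p in each class, and those whose probes differ in sign. From the 2 lists of other genes, 5 and 3 were named likewise. Mia2, Crtap, Lox, P4hb, Ddr1 and Ddr2 were added after their values were seen. Alternatives covered background, scaling, filter, probe choice, variance model, sex, replicate block and arrays left out.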

Additional observations from a re-analysis of the deposited data

How the results depend on the processing

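No collagen gene passed the adjusted threshold under any alternative (lowest adjusted p among the 26 named genes 0.154), nor with arrays left out. The median of all genes stayed between -0.01 and 0.01 with each array left out. The 2 collagen genes at an unadjusted p under 0.05 became 1 where background had to be exceeded on all 6 arrays (3.12%, against 8.85% of all genes), 5 with sex as a covariate, which drops KO replicate 3 (14.7%, against 13.7%), and 6 without WT replicate 2 and KO replicate 3 (17.6%, against 9.66%); with each array left out they were 1 to 5. Col13a1 was among them in every setting. The 3 genes without overlap became 2 with normexp background (5.88%, against 13.5%) and 1 with probes averaged per gene (2.94%, against 15.2%). They became 11 without WT replicate 2 and KO replicate 3 (32.4%, against 40.9%), and 4 to 9 with each array left out, where fewer arrays are compared. The 6 genes with probes of both signs became 12 with no filter on dim probes and 6 to 9 with each array left out. The transmembrane median was 0.284 with normexp background and 0.459 with no filter, and with each array left out the fibrillar median was -0.188 to -0.0522, that of basement membrane chains 0.199 to 0.33, of FACIT chains -0.361 to 0.163 and of beaded filament chains -0.0752 to 0.362. Synthesis and processing genes at an unadjusted p under 0.05 were 1 with the replicate block, 0 without WT replicate 2 and KO replicate 3, and 0 to 4 with each array left out; receptor genes were 1 with probes averaged per gene and 1 to 2 with each array left out. These alternatives for the 2 lists were chosen after seeing the data.

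Of the named genes, 252 of 258 values under other alternatives kept their sign. The exceptions were Col5a2 (-0.0531), Col6a2 (-0.0204) and Col6a3 (-0.0496) with probes averaged per gene, and Col6a2 (-0.0554), Col6a3 (-0.0279) and Col6a5 (-0.271) without WT replicate 2 and KO replicate 3. With each array left out 148 of 156 kept it, and the ranges that cross 0 were -0.0925 to 0.084 for Col5a2, -0.072 to 0.418 for Col12a1, -0.342 to 0.144 for Col14a1, -0.386 to 0.0287 for Col16a1 (-0.407 without WT replicate 2 and KO replicate 3), -0.0148 to 0.362 for Col6a2, -0.093 to 0.277 for Col6a3 and -0.0752 to 1.17 for Col6a5. The cause was not tested. Deviations of same-numbered arrays of the groups had correlations of 0.531, -0.149 and -0.0295 for replicates 1, 2 and 3. Those of differently numbered arrays lay between -0.451 (KO replicate 1 and WT replicate 2) and 0.4615 (KO replicate 3 and WT replicate 2). With 3 arrays a group these values cannot show whether the numbers pair the samples. The replicate block put 5 collagen genes at an unadjusted p under 0.05, which is 14.7%, where all genes gave 9.17%. Overlap was not recounted with covariates or other variance models, which give no array values.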
